A study of Oryza sativa with 3 samples.

Results

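The tRNA fragments listed in rice tricellular pollen were compared with those listed at the earlier stages of pollen development. The tricellular list holds 8633 distinct sequences, of 18424 distinct sequences over the lists of all 3 stages. They were taken by presence only, since the numbers deposited beside them run from 1 to 28 and were not read as reads, and they were joined by exact sequence to the lists of bicellular pollen and of microspores. A bicellular sequence is called kept when tricellular pollen lists it too and lost when it does not, and a tricellular sequence is called new when neither earlier stage lists it.

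Spores came from Oryza sativa, cultivar Guichao No.2, grown in the field in Southwest China and separated on a sucrose gradient. The groups are uninucleate microspores (UNM), the haploid spores before the first pollen division, bicellular pollen (BCP), in which a generative cell lies within a vegetative cell, and tricellular pollen (TCP), in which the generative cell has divided into a pair of sperm cells. No treatment or genotype separates them. Each stage is 1 library, and the number of plants behind it is not given in the sources used here. The lists hold tRNA fragments only, so the labelled cell type could not be checked against marker genes.

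Transfer RNAs carry amino acids to the ribosome and are also cut into stable fragments. Cuts in the D loop leave short 5′ fragments, cuts in or near the anticodon loop leave long 5′ fragments, and fragments of the 3′ side can end in CCA, the bases that an enzyme adds to every mature tRNA. In plants such fragments are abundant in pollen, and in Arabidopsis pollen short 5′ fragments accumulate.

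The bicellular fragments with the most reads are printed first because tricellular pollen listed all 10 of them. Capitals mark positions 8 to 14 of the mature tRNA, a motif used to place 5′ fragments (T, a purine, any base, a pyrimidine, any 2 bases, A).
Asp, 32 nt: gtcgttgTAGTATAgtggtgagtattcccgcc
Asp, 14 nt: gtcgttgTAGTATA
Glu, 16 nt: tccgttgTAGTCTAgc
Ala (anticodon TGC), 16 nt: ggggatgTAGCTCAaa
Glu, 33 nt: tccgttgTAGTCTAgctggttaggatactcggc
Leu (anticodon CAA), 35 nt: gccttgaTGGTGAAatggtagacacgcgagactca
The 32-nt Asp fragment had 955 reads in microspores and 677135 in bicellular pollen. The 16-nt Glu fragment had 71550 and 294518 reads, and the 35-nt Leu fragment had 152 and 86261. All 10 begin at the first tRNA base by the motif, and they were listed at all 3 stages.

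The microspore list held 5477 sequences and 686685 reads and the bicellular list 14717 sequences and 4958412 reads, while the depth of the tricellular library is unknown. A scarce sequence is missed more easily than a frequent one, so bicellular sequences were compared within 8 bins of bicellular reads. Each interval given is an exact Clopper-Pearson 95% interval. It covers counting error only, and nested fragments of the same tRNA are not independent. With 1 library per stage no test between stages was possible and no difference below has a replicate check. Absence from a list cannot tell fewer cells that hold a fragment from less of it per cell, or from a shallower library.

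Tricellular pollen listed 6163 of the 14717 bicellular sequences, 41.9% (41.1 to 42.7), and 8554 were lost, 58.1%. The kept sequences carried 98.7% of all bicellular reads. Lost sequences with at least 100 reads numbered 33 under 38 nt and 22 of 38 nt or more. Microspores listed 3920 of the same bicellular sequences, 26.6%. Of the 4703 bicellular sequences found in exactly 1 of the other lists, 3473 were in tricellular pollen and 1230 in microspores, a tricellular share of 73.8% (72.6 to 75.1). Microspores and tricellular pollen thus shared different numbers of the same bicellular fragments, and both lists differ in depth by an unknown amount. Of the sequences in both the microspore and the bicellular list, 68.6% (67.1 to 70.1) were kept, against 32.2% (31.3 to 33.1) of those absent from the microspore list. These shares are pooled over reads, and within each bin of bicellular reads the gap was smaller. It was 27.7% against 15.6% at a single read, 57.0% against 47.2% at 4 to 9 reads and 77.0% against 66.0% at 10 to 29 reads.

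The kept share climbed with bicellular reads. It was 16.8% (15.8 to 17.8) for the 5508 sequences with a single read and 31.3% for those with 2 to 3 reads. It was 50.04% for 4 to 9 reads, 70.4% for 10 to 29 and 84.0% for 30 to 99. Among sequences under 38 nt, 94.3% of those with at least 100 and under 300 reads, 98.1% of those with at least 300 and under 1000 and all 279 with 1000 reads or more were kept. Microspores listed a smaller share in every bin, from 10.1% at a single read to 96.1% at 1000 reads or more among sequences under 38 nt.

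**Figure D1:**
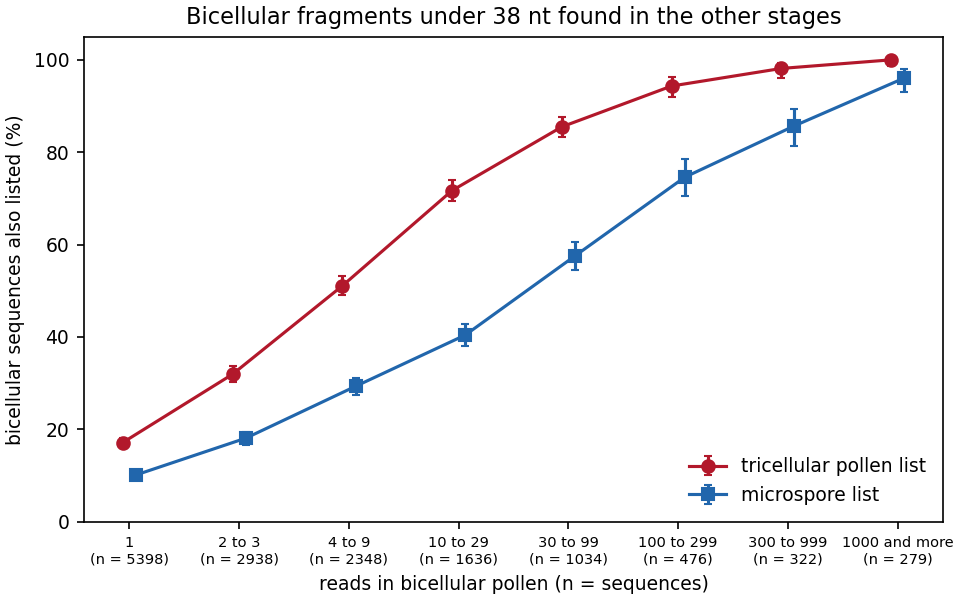
Share of bicellular sequences under 38 nt that were also listed in tricellular pollen (red circles) and in microspores (blue squares), by bin of reads in bicellular pollen, with exact 95% intervals as bars and the number of sequences per bin below the axis. The tricellular share runs from 17.1% at a single read to 100% at 1000 reads or more and lies above the microspore share in all 8 bins.

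The longest sequences need a note before lengths are compared, because the lists end at different lengths. The bicellular list held 286 sequences of 39 nt with 28672 reads, none of 38 or 40 nt and a single one of 37 nt. The microspore and tricellular lists held 95 and 252 sequences of 40 nt and none of 39 nt. None of the 286 bicellular 39-nt sequences could therefore be kept by exact identity. Of these, 115 were the first 39 bases of a 40-nt tricellular sequence, 40.2%, where 121 were expected from the kept shares of shorter sequences with as many reads. The 39-nt sequences with the most reads of His and of Gln show both outcomes.
His, 39 nt: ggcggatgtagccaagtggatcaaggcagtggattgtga
Gln, 39 nt: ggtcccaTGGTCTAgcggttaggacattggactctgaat
The His sequence had 16548 reads in bicellular pollen and the Gln sequence 2667, and neither had a microspore read. A 40-nt tricellular sequence begins with the His sequence and none with the Gln sequence. The His fragment carries an additional base before its motif, so the motif rule did not place it.

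For each group of sequences, the kept share was set against the share expected if each bin of reads kept what it keeps over all sequences. A group of at least 20 bicellular sequences was called higher or lower when the difference was at least 10 percentage points and the interval left out the expected share. No length class was called higher (0% of 7 classes) and 1 was called lower (14.3%), the class of 38 to 41 nt just described, with 0 of 286 kept. Fragments of 34 to 37 nt were kept at 59.4% (55.7 to 63.0) where 50.3% was expected, 9.14 points above and short of the limit of 10 points. The classes from 13 to 33 nt lay between 2.48 points below and 2.71 points above the expected share. By class, kept fragments were thus nearly as frequent as their reads predict up to 33 nt. By single length, 26 nt lay 5.88 points below and 23 nt 5.13, and 14 nt lay 4.29 points above and 15 nt 3.53. Their intervals left out the expected share. With 10 to 99 reads, 69.6% were kept at 21 to 24 nt and 81.1% at 30 to 33 nt.

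Microspores differed from tricellular pollen in this respect. Measured against the same bicellular sequences, the microspore list called 1 of 7 length classes higher (14.3%) and 3 lower (42.9%). It held 39.7% of the bicellular sequences of 13 to 17 nt where 26.0% was expected. It held 18.9% of those of 30 to 33 nt where 30.5% was expected, and 14.4% of those of 25 to 29 nt where 25.8% was expected. The third class called lower was that of 38 to 41 nt. Among sequences found in exactly 1 of the other lists, the tricellular share was 55.8% (53.3 to 58.2) at 13 to 17 nt. It was 71.0% at 18 to 20 nt, 76.7% at 21 to 24 nt and 88.7% at 25 to 29 nt. At 30 to 33 nt it was 93.3% (91.1 to 95.1) and at 34 to 37 nt 91.9%. Among these sequences, long ones were mostly in tricellular pollen, while short ones were divided between both other stages. Sequences in both other lists are not part of this share. Of the 232 fragments of 30 to 33 nt with at least 100 reads, tricellular pollen listed all and microspores 188. Of the 1300 with 1 to 9 reads, they listed 394 and 74.

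By single length, 2 of 25 lengths were called higher (8%) and 1 lower (4%). Fragments of 36 nt were kept at 69.3% (57.6 to 79.5) where 54.6% was expected, and those of 35 nt at 64.9% (58.9 to 70.6) where 52.5% was expected. The lower length was 39 nt. All 343 bicellular sequences of 30 to 37 nt with at least 100 reads were kept. In microspores 36 nt lay on the other side, with 25.3% listed, 13.4 points below the expected share.

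**Figure D2:**
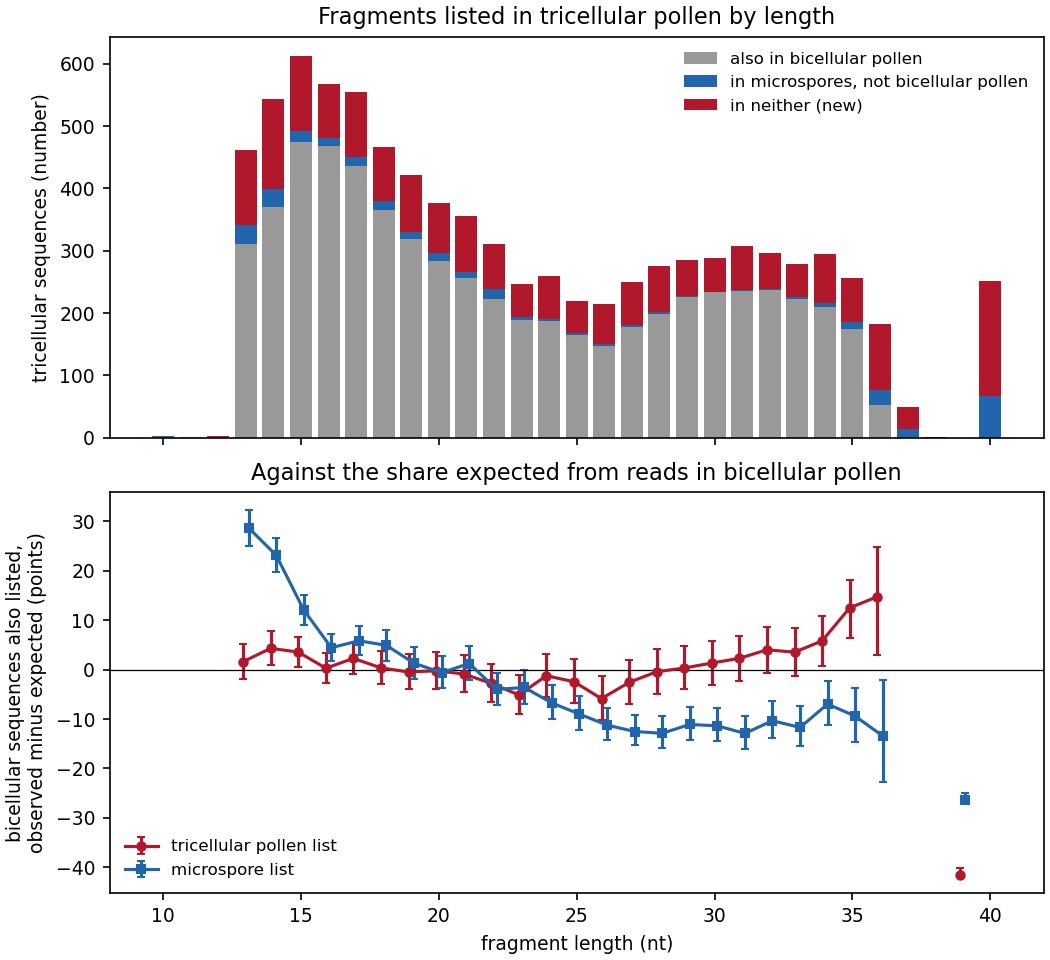
Top, number of tricellular sequences of each length (nt) that bicellular pollen also lists (grey), that microspores but not bicellular pollen list (blue) and that are new (red). Bottom, observed minus expected share of bicellular sequences listed in tricellular pollen (red circles) and in microspores (blue squares), in percentage points by length with 95% intervals of the observed share. The tricellular points stay within 6 points of 0 from 13 to 34 nt, the microspore points start 28.6 points above 0 at 13 nt and lie below 0 from 22 nt on, and both lists miss the 39-nt sequences.

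The same lengths could be followed along 6 series of 5′ fragments, each with a common start, that differ only in where they end. All but the His series begin at the first base by the motif, and the His series begins 1 base earlier. The series were chosen with values known, to cover the most-read fragments and amino acids that differed, and support no count elsewhere. Under 38 nt these series held 129 bicellular sequences, of which 119 were kept. In the Gly series (anticodon TCC) all 22 were kept, in the Glu series (CTC) all 23, and in the His series (GTG) 22 of 23. In the Asp series (GTC) 21 of 23 were kept. The lost Asp fragments of 20 and 22 nt had 66 and 60 bicellular reads and 8 and 1 microspore reads, between kept neighbours such as the 19-nt fragment with 67690 bicellular reads. In the Tyr series (GTA) 15 of 21 were kept, and the 6 lost had between 1 and 6 reads.

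The 6 series also ended differently. In all 6, the longest tricellular fragment under 38 nt was exactly 1 base longer than the longest bicellular one, and in 5 of 6 it had the same length as the longest microspore fragment. The fragments at these ends are printed because microspores and tricellular pollen listed them and bicellular pollen did not.
Gly (TCC), 35 nt: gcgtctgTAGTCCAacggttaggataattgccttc
Glu (CTC), 36 nt: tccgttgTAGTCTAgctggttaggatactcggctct
Tyr (GTA), 37 nt: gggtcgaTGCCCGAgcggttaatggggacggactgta
The Gly fragment had 2885 microspore reads and 0 bicellular reads, although the fragment 1 base shorter had 608 and 24212. The Glu fragment had 659 and 0 reads, next to 770 and 3521 for the 35-nt fragment. The Tyr fragment had 325 and 0 reads, next to 215 and 16544 at 36 nt. Over all 48 families of such 5′ fragments that reach 34 nt in both lists, grouped by their first 13 bases, the tricellular end was 1 base longer in 32, longer by more than 1 base in another, equal in 15 and shorter in 0. Against microspores, over 36 such families, it was equal in 20, longer in 15 and shorter in 1. These counts were added after the values were seen. Of 31 microspore sequences of 34 to 37 nt with at least 50 reads, tricellular pollen listed 31 and bicellular pollen 18. At 13 to 33 nt, of 339 such sequences tricellular pollen listed 323 and bicellular pollen 337. A difference in the fragments and a difference in how the lists were made cannot be told apart at these lengths.

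**Figure D3:**
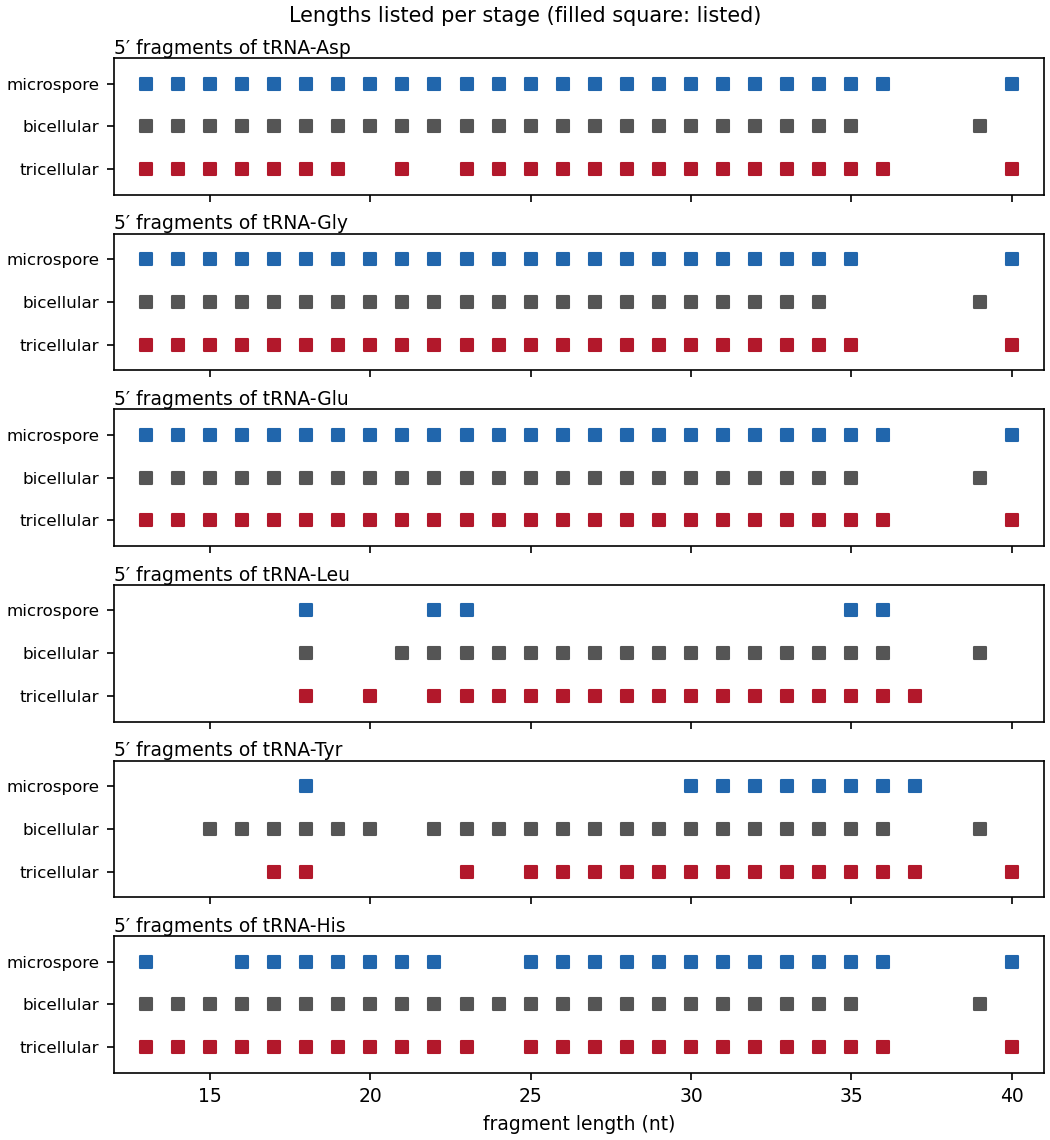
Lengths (nt) at which 5′ fragments of 6 tRNAs (rows of panels) are listed in microspores (blue), bicellular pollen (grey) and tricellular pollen (red), with a filled square for each listed length. In every panel the tricellular squares under 38 nt end 1 base beyond the bicellular ones, and the fragments of 39 nt are listed in bicellular pollen only.

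By amino acid, 1 of 20 groups was called higher (5%), 1 lower (5%) and 18 neither. Tyr fragments were kept most above the expected share, with 341 of 620 kept, 55% (51.0 to 59.0) where 42.8% was expected. Trp fragments were kept least, with 54 of 231 kept, 23.4% (18.1 to 29.4) where 34.2% was expected. Restricted to sequences with at least 10 bicellular reads, Tyr lay 7.02 points above and Trp 6.29 points below, both under the limit for a call. In that setting Met was called higher instead, 11.5 points above, and Lys lower, 13.6 points below. Among the other groups, Met lay 9.33 points above, Phe 7.46, Leu 5.89 and Ser 5.82. Asp lay 8.38 points below, Thr 7.37, Lys 6.58 and Val 5.94. The remaining 10 groups lay between 5.38 points below (Pro) and 1.97 points above (Arg). The 39-nt sequences, lost by their length, were part of these shares, and without them the same number of groups was called in each direction.

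Against the same bicellular sequences, other amino acids were called in microspores, 2 of 20 higher (10%) and 1 lower (5%). Ala fragments were listed in microspores at 42.9% where 29.1% was expected and were kept in tricellular pollen at 38.8% where 43.3% was expected. Cys was the other group called higher in microspores, at 38.2% against 28.2% expected, and Asn was called lower, at 5.37% against 16.5%. In tricellular pollen both lay within 2 points of the expected share. Among bicellular sequences in exactly 1 of the other lists, the tricellular share ran from 42.0% (33.7 to 50.7) in Ala to 89.3% (78.1 to 96.0) in Asn and was 86.7% in Tyr and 88.8% in Met.

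**Figure D4:**
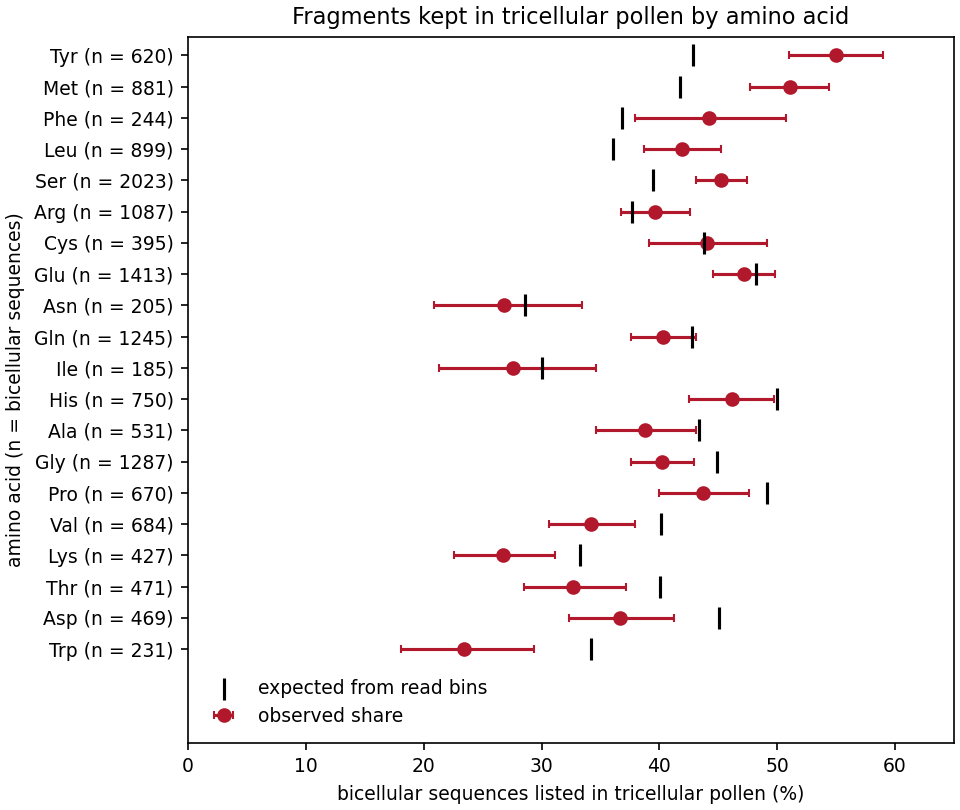
Share of bicellular sequences kept in tricellular pollen for each of 20 amino acids (red circles, exact 95% intervals), with the share expected from bins of bicellular reads as a black tick and the number of bicellular sequences beside each name. Tyr at the top lies 12.2 points above its tick and Trp at the bottom 10.9 points below.

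The most-read fragments of nearly all amino acids were kept. Of 1077 bicellular sequences under 38 nt with at least 100 reads, 1044 were kept and 33 lost. In 11 of the 19 amino acids that had such sequences none was lost, among them 122 of 122 for Ser, 63 of 63 for Ala, 54 of 54 for Tyr and 44 of 44 for Leu. The losses fell on Gln with 9 of 88, Gly with 8 of 121, His with 5 of 85, Glu with 4 of 149, Asp, Met and Pro with 2 each and Phe with 1. All 33 were between 13 and 28 nt long, and 28 of them were not placed as 5′ fragments by the motif. Of the 1077 sequences, 535 were not placed, and 507 of those 535 were kept.

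By anticodon, 5 of 48 groups were called higher (10.4%) and 4 lower (8.33%). Those called higher decode Leu, Ser and Tyr. Leu fragments with anticodon TAA were kept at 56.6% (49.4 to 63.7) where 39.2% was expected, 17.4 points above. Ser fragments with anticodon GGA were kept at 48.2% (40.3 to 56.1), 15.2 points above, and Leu fragments with CAA at 51.8% where 39.3% was expected. Tyr has a single anticodon, GTA, and Ser fragments with GCT lay 10.3 points above. Ile fragments with TAT lay 11.04 points above with 7 of 20 kept, an interval of 15.4 to 59.2% that holds the expected share. The isoacceptors of an amino acid did not move alike, since Leu fragments with TAG lay 6.82 points below and Ser fragments with AGA 8.12 points below.
Leu (TAA), 17 nt: gctggttTGCCCGAgtg
Ser (GGA), 34 nt: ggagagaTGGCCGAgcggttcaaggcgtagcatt
Tyr (GTA), 36 nt: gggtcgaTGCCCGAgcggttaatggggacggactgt
These are the most-read fragments of 3 of the anticodons called higher. The Leu fragment had 106 reads in microspores and 3976 in bicellular pollen, the Ser fragment 1 and 2102 and the Tyr fragment 215 and 16544. All were listed in tricellular pollen.

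The anticodons called lower were CCC of Gly, AGT of Thr, ACG of Arg and CCA of Trp. Gly fragments with CCC were kept at 24.1% (19.6 to 28.9) where 36.1% was expected, 12.1 points below. Thr fragments with AGT were kept at 12.7%, 8 of 63 (5.65 to 23.5), where 24.1% was expected, and this call was lost in 3 of 6 alternative settings. Arg fragments with ACG were kept at 27.1%, 10.9 points below. Val fragments with AAC were just outside the call, 9.94 points below. The other anticodons of Gly lay closer to the expected share, 1.40 points below for TCC and 2.44 for GCC.
Gly (CCC), 35 nt: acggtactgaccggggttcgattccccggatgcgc
Arg (ACG), 32 nt: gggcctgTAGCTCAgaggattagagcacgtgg
Thr (AGT), 21 nt: gttcgactctcaacgagagca
These are the most-read fragments of 3 of the anticodons called lower. The Gly fragment had 7 microspore and 554 bicellular reads and the Arg fragment 0 and 1179, and both were kept. The Thr fragment, with 0 and 19 reads, was lost.

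The place of the fragments on the tRNA was read from the motif, since the lists give no positions. Of the 1443 bicellular fragments that start at the first base, 1047 were kept, 72.6% (70.2 to 74.8), where 64.0% was expected. Those that start at the second base were kept at 52.8% where 46.7% was expected, and those at the third base at 46.7% where 44.04% was expected. Fragments not placed were kept at 37.2% where 38.8% was expected. They include the 3′ side, the interior and tRNAs without the motif. Also among them are 5′ fragments too short to hold the whole motif and those with an additional base before it. None of these 4 groups was called (0%). The difference from the expected share was largest at the first base, 8.57 points, and 2.63 points at the third.

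Fragments that end in CCA were called higher, 1 of 2 groups (50%). Of 201 bicellular fragments, 104 were kept, 51.7% (44.6 to 58.8), where 37.5% was expected. Microspores listed 17.9% of them where 23.04% was expected, which was not called. A split made after the values were seen gave 49.2% kept, 15.2 points above, for the 181 that were not placed as 5′ fragments. In the 113 of 21 to 37 nt, 64.6% were kept where 42.9% was expected, and in the 78 of at most 20 nt 39.7% were kept where 30.5% was expected. Tyr had 18 of 20 kept and Gln 20 of 30, while Ser had 0 of 10 and Gly 3 of 16. The motif does not show whether a CCA lies at the end of the tRNA or within it. When a fragment 1 base longer or shorter at its 3′ end also counted as kept, the difference was 5.64 points and no longer called. The excess was not particular to CCA. Among all endings of 3 bases under 38 nt, formed after the values were seen, CCA lay 16.5 points above. Of the 64, the endings AAA (17.5 points), CTA (16.1) and CAG (11.3) were the only others called higher, and no ending was called lower.

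The 10 lost fragments with the most reads under 38 nt are exceptions to the rise with reads, and those ranked 1, 3, 9 and 10 are shown. The others begin with GTA, apart from a 21-nt Gly fragment with 345 bicellular reads that the motif placed at the second base.
Gln (TTG), 17 nt: gtggttagcactccaga
Gly (GCC), 15 nt: agaatagtaccctgc
Gln (CTG), 28 nt: atggtctagcggttaggacattggactc
His (GTG), 18 nt: ggtgagaattccacgttg
The 17-nt Gln fragment had 1 microspore read and 644 bicellular reads. The 15-nt Gly fragment had 1 and 353, the 28-nt Gln fragment 0 and 219, and the 18-nt His fragment 0 and 215. The region they cover was still listed in tricellular pollen. The 17-nt Gln fragment lies inside 48 tricellular sequences, 11 of which share its 3′ end, and over the 10 most-read lost fragments this number ran from 12 to 61. For each of these 10, at least 4 longer tricellular sequences had the same 3′ end, and for 6 of them longer ones also had the same start, so that for those 6 the combination of both ends was missing.

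Most fragments that begin with the bases GTA, a group formed after these values were seen, were lost. The lost ones were 238 of the 8268 lost sequences under 38 nt. Of 280 bicellular sequences under 38 nt that begin with GTA, 42 were kept, 15% (11.03 to 19.7), 24.8 points below the expected share. Of 64 possible first 3 bases this was the lowest against its expectation, with 4 groups called lower (6.25%) and 4 higher (6.25%). Of the 9 with at least 100 reads, 6 were lost. The deficit did not extend to all of these starts. Sequences that begin with GTAC had 9 of 28 kept, 4.09 points above the expected share, which was not called. Those that begin with GTAA, too few for a call, had 3 of 11 kept. The fragments printed here all begin with GTAG.
Gly (GCC), 13 nt: GTAgaatagtacc
Met (CAT), 27 nt: GTAgaggaattggtcaactcatcaggc
His (GTG), 16 nt: GTAgagacctgggctc
His (GTG), 14 nt: GTAgagacctgggc
Capitals mark the first 3 bases. The Gly fragment had 356 bicellular reads, the Met fragment 337 and the 16-nt His fragment 301, and all were lost, while the 14-nt His fragment with 732 reads was kept. Losses were found for most amino acids, with 50 of 53 lost for Gly, 18 of 18 for Ala, 16 of 17 for Gln and 15 of 15 for Met. Ser kept 11 of 28, His 9 of 29 and Cys 4 of 13, more than the group as a whole. The other groups called lower begin with TGT, CTC and GTG, at 15.4, 11.7 and 10.6 points below. In microspores 16.4% of the GTA sequences were listed where 24.1% was expected, which was not called.

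Of the tricellular sequences, 2150 were new, 24.9% (23.995 to 25.8), 320 were shared with microspores but not bicellular pollen and 6163 were listed in bicellular pollen. By length, the new share was 21.1% at 13 to 17 nt, 20.5% at 18 to 20 nt and 24.2% (21.8 to 26.8) at 21 to 24 nt. At 25 to 29 nt the new share was 25.3% (22.9 to 27.8) and at 30 to 33 nt 20%. The new share was 37.3% (33.9 to 40.8) at 34 to 37 nt and 73.9% at 38 to 41 nt, the lengths at which the lists end differently. Sequences of at least 30 nt made up 33.2% of the new sequences, 22.1% of the kept and 18.2% of the lost ones. The new ones include 186 of 40 nt, a length that the bicellular list lacks, and 106 of 36 nt. At 30 to 33 nt, below these lengths, the share was 10.9% of the new and 11.4% of the lost sequences. By amino acid, the new share ran from 12.1% (8.31 to 16.8) in Ala to 48.7% (39.4 to 58.1) in Asn, whose bicellular list had 611 reads in all. It was 31.4% in Met, 27.4% in Ser, 26.3% in Tyr and 17.2% in Glu.

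New sequences were mostly new in their ends, as were the sequences that only 1 of the other lists held. Of 2149 new sequences of at least 13 nt, 1702 lie inside a longer earlier sequence, 79.2%, and a further 424 contain a shorter one, 19.7%. Only 23, 1.07%, did neither. Of the 7323 such sequences listed in bicellular pollen alone, 87.9% lay inside a longer sequence of the other stages and 71 did neither. Of the 1237 listed in microspores alone, 91.0% lay inside a longer one and 6 did neither. Nesting was thus not particular to the new sequences, which lay inside a longer sequence less often. Few new sequences were placed at the first base of the tRNA by the motif. They were 10.4% (8.70 to 12.2) of the tricellular fragments placed there, against 28.6% (27.5 to 29.7) of those not placed. Among tricellular fragments that end in CCA 65 of 177 were new, 36.7%.

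Grouped by amino acid and first 13 bases, 1335 of 2273 tricellular families held at least 1 new sequence and 871 held exactly 1. The families with the most new sequences are printed by their longest member, with the shared first 13 bases in capitals.
Cys (GCA), 40 nt: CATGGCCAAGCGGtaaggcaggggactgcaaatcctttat
His (GTG), 36 nt: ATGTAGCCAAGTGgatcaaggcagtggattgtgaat
Ser (TGA), 40 nt: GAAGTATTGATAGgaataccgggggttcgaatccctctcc
The Cys family had 9 tricellular sequences of 17 to 40 nt, all new, with 2 other microspore sequences of 2 reads in all and 0 bicellular ones of the same start. The His family had 13 tricellular sequences, 8 of them new, and 5 bicellular ones with 9 reads. The Ser family had 9, of which 8 were new, and 2 bicellular ones with 2 reads. These families were picked for their number of new sequences, and the fifth by that number, of Ser (GCT), had 298 bicellular and 23 microspore reads.

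Fragments of the microspore list were followed in the same way. Tricellular pollen listed 3010 of 5477, 55% (53.6 to 56.3), which carried 98.6% of microspore reads. By reads the share ran from 37.8% at a single read to 98.2% at 1000 reads or more. The exceptions with the most reads were short.
Leu (AAG), 13 nt: gtccgaaagggcg
Phe (GAA), 13 nt: tctgaaggtcgcg
Tyr (GTA), 13 nt: gcggaggactgta
The Leu fragment had 1282 microspore reads and 2 bicellular reads, the Phe fragment 542 and 57 and the Tyr fragment 221 and 53, and none was listed in tricellular pollen. Neither the Leu, the Phe nor the Tyr fragment was placed by the motif, which ends beyond the last base of a 13-nt fragment that starts at the first base.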

How the data were processed

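Each of the 3 deposited lists gives an anticodon, a fragment sequence and a number, per the file headers. The deposited counts of microspores and bicellular pollen are whole reads per distinct sequence, not normalized, and the tricellular numbers were used only for presence. Per the submitters' processing notes the tool was Bowtie 1.1.2. For its reference, build and trimming, none was given in the sources used here. Per the labels, microspore small RNAs span 13 to 40 nt and those of the other libraries 13 to 41 nt. Sequences were joined by exact identity in Python 3.11.15 with pandas 2.3.3, and intervals were computed in scipy 1.17.1. Expected kept shares came from 8 bins of bicellular reads with lower edges 1, 2, 4, 10, 30, 100, 300 and 1000. This step was tested on simulated data in which each sequence was kept independently of the others. The simulation therefore does not cover the dependence between nested fragments. The amino acid follows from the anticodon, as labelled in the bicellular list for kept and lost sequences, and 157 tricellular sequences carry another anticodon label in an earlier list. Named sequences were taken from those with the most reads per class, 1 per amino acid and first 13 bases where a class was reduced. Not all of them are printed. Named anticodons are the 5 with the largest and smallest differences. The members, groups and lists were chosen with earlier results of these data known. The read limits, the first and last 3 bases, the CCA split and the 6 series were chosen after values were seen. Plastid and nuclear tRNAs were not separated.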

Additional observations from a re-analysis of the deposited data

Results flagged for a closer look

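For Ser fragments with anticodon GGA the tricellular and microspore lists lay on opposite sides of the share expected from bicellular reads. The kept share in tricellular pollen was 15.2 points above it and the share in microspores 12.4 points below, with 79 and 13 of 164 bicellular sequences listed. The difference between the stages was not tested.

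For fragments of 36 nt the tricellular list lay 14.7 points above the expected share and the microspore list 13.4 points below, with 52 and 19 of 75 bicellular sequences listed. The difference between the stages was not tested, and the lists end differently near this length.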

How the results depend on the processing

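No paired analysis was possible because each stage is 1 library. With at least 10 bicellular reads 81.2% of bicellular sequences were kept. With a 3′ end that may differ by 1 base it was 59.05%, with either end 69.1%, and without sequences of 38 nt or more 42.7%. The new share was 14.1% with the free 3′ end, 9.36% with either end free, 22.0% at 13 to 33 nt, 22.4% when 1 base may differ and 22.3% without sequences of 36 nt or more. The tricellular share among bicellular sequences in exactly 1 other list was 83.9% from 10 reads on and 76.2% with the free 3′ end. The free 3′ end gave 2 lower amino acids, 7 lower anticodons and 0 higher groups by place. From 10 reads on 1 length class was higher, 34 to 37 nt. Without sequences of 38 nt or more 0 length classes were lower. With the expected share taken outside each group, 1 group by place was lower, the fragments not ending in CCA. The other 55 values of these results stayed within the limits set, although a stable count can hide an exchange: from 10 reads on Met and Lys were the called amino acids in place of Tyr and Trp. Of 88 values for called groups under other settings 0 changed sign, and of 486 for groups not called 41 did, among them Ala (2.06 points), Glu (2.75) and Phe (-0.12) from 10 reads on. Tyr and Trp stayed called in 6 of 7 settings each, Thr AGT in 3 of 6. The settings without the longest sequences were chosen after seeing the data. The unknown tricellular depth limits every statement on absence, most of all for sequences with few bicellular reads.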

Other observations

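The number beside each tricellular sequence, not used above, was 1 for 51.4% of the 8633 sequences, for 78.7% of the new and for 41.9% of the kept ones. It was equal in 45.2% of 7822 pairs of tricellular sequences that differ by 1 base at an end, against 13.0% of 15497 such pairs for bicellular reads. Across the 6163 shared sequences, which are not independent, its Spearman correlation with bicellular reads was 0.505.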
